A study of Chlamydomonas reinhardtii with 24 samples.

Results

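The 23 genes described here had a strong transcript response to UV-B in wild type of the unicellular green alga Chlamydomonas reinhardtii and a small one in a mutant of CO. They were taken from a deposited table of 14621 genes. Read counts were divided by the library total, scaled to CPM and averaged over the 3 libraries of a group. The response in a genotype, called L, is the log2 ratio of the UV-B mean to the mean without UV-B after 0.5 CPM was added to each. A gene was kept with a mean of at least 5 CPM in WT with UV-B, an L of at least 2 in WT, and an L in co of at most 0.3 times its L in WT. This gave 27 genes, of which 4 with known names (PSBS1, PSBS2, ELI2 and ELI4) were set aside. The genes were chosen by their measured levels in the WT and co libraries, so the values in WT and co are descriptions without a test. The tests below compare hy5 and uvr8 libraries, whose levels had no part in the choice. The spread behind each p-value was estimated over all 24 libraries, those of WT and co included, and with the hy5 libraries alone 17 genes of the set were called in hy5 in place of 19.

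In plants and green algae the photoreceptor UVR8 absorbs UV-B and then binds the COP1 and SPA1 proteins, which form part of a ubiquitin ligase. This changes the stability of transcriptional regulators that the ligase targets. CO is a CONSTANS-like zinc finger regulator in this pathway, and HY5, a bZIP transcription factor, is known in plants as a main regulator of genes downstream of UVR8. In Chlamydomonas the pathway is known for raising photoprotective proteins of the chloroplast. None of the 23 identifiers carries a name in the table or in the gene reference used here, so they are given by locus and without a function.

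Polyadenylated RNA was sequenced from 4 strains. The wild type (WT) was CC5325, and the mutants were LMJ.RY40202.156289 (uvr8), LMJ.RY402.149321 (co) and LMJ.RY402.194448 (hy5, called CrBlz3 in the series text as well). Each mutated gene is represented by 1 strain, named in the style of the insertion library, and the labels do not describe its lesion. All cells were grown with acetate under continuous light, were then moved to minimal medium, and stood in dim white light (20 µmol photons per m2 and s) during treatment. The UV-B groups received 0.2 mW per square centimetre behind a 311 nm filter for 1 h, and the groups without UV-B stood behind a 360 nm filter. Each of the 8 groups had 3 libraries, numbered 1 to 3. The labels do not say whether the numbers stand for separate cultures, so a p-value given here covers only the spread among the libraries, which may be technical. In a bulk culture, fewer responding cells and less RNA per cell cannot be told apart.

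Library totals ran from 19267716 to 27686700 counts, and single genes of the set had from 4 to 8343 counts in a library. Without UV-B the CO transcript was at 575 ± 41.8 CPM in WT (SD, n = 3, as for all values given this way) and at 8.75 ± 0.747 CPM in co. The HY5 transcript was at 129 ± 25.2 CPM in WT with UV-B and at 0.943 ± 0.106 CPM in hy5. UVR8 without UV-B was at 37.4 ± 5.76 CPM in WT and 23.8 ± 0.343 CPM in uvr8, so its transcript checks that label less closely. Division by library totals left the median L over all tested genes at -0.22 in WT, -0.01 in co, -0.08 in hy5 and 0.07 in uvr8. With TMM, a scaling that sets the bulk of genes level, these medians were 0.01 or less in size. Under TMM the same thresholds gave 42 genes, among them all 23.

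The set is the low end of a continuous range. Together with the 23, 171 genes met the WT thresholds, and the other 148 had an L in co above 0.3 times that in WT. L in co as a share of L in WT lay at 0 to 10% in 4 of the 171 genes, at 10 to 20% in 4 and at 20 to 30% in 15. The next steps of 10 percentage points held 37, 42 and 43 genes. The 3 genes just inside the limit were Cre17.g715700 at 29.8%, Cre02.g086500 at 29.5% and Cre09.g407200 at 29.4%. Just outside stood Cre13.g586050 at 30.5%, Cre10.g432900 at 31.4% and Cre10.g444550 at 31.5%. At the limit on L in WT, Cre02.g086500 at 2.00, Cre10.g464850 at 2.01 and Cre04.g221500 at 2.04 were inside, and Cre10.g457900 at 1.99, Cre10.g464250 at 1.97 and Cre13.g583050 at 1.92 outside. At the limit on level, Cre05.g242750, Cre04.g221500 and Cre07.g318300 were inside at 6.94, 7.31 and 7.47 CPM, and 1 gene, Cre16.g801977 at 2.79 CPM, was left out by it. Of the 23 genes, 9 were kept in all 12 runs that left out 1 WT or co library.

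**Figure D1:**
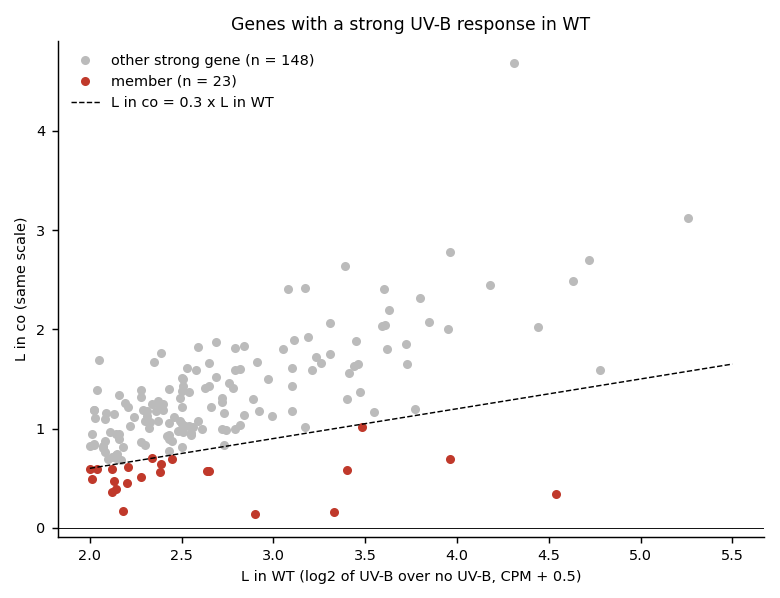
L in co (vertical) against L in WT (horizontal), both log2 of UV-B over no UV-B on CPM + 0.5, for the 171 genes with a strong response in WT. The 23 genes (red) lie on or below the dashed line at 0.3 times L in WT, and the other 148 (grey) lie above it without a gap.

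Over the 23 genes L ran from 2.00 to 4.54 in WT, with a median of 2.34, and from 0.14 to 1.02 in co, with a median of 0.57. All 23 had an L above 0 in co, and 14 had 0.5 or more. In WT the UV-B libraries lay wholly above those without UV-B in all 23 genes (9.02% of all tested genes). In co this held for 11 of 23 (8.47% of tested genes). With UV-B, WT lay wholly above co in 18 of the 23 (4.77% of tested genes) by library totals. When levels were scaled by TMM it did so in 20, for which the share over all tested genes was not computed. The hy5 libraries with UV-B lay wholly above those of co in 19 (7.12% of tested genes). These counts follow in part from the rule and are given as descriptions.

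Cre01.g016150 shows the common pattern. Its WT libraries 1, 2 and 3 held 16.1, 22.9 and 15.6 CPM without UV-B and 105, 123 and 122 CPM with it. The co libraries held 23.7, 26.1 and 24.2 CPM without and 36, 39.2 and 35.2 CPM with UV-B. The co groups did not overlap, but no co library came near the WT libraries with UV-B. Cre12.g530300, which had the highest count of the set, went from 72.8, 56.5 and 67.1 CPM to 318, 278 and 316 CPM in WT. In co it went from 81.4, 74.5 and 75 CPM to 107, 111 and 135 CPM. Cre01.g007700 went from 37.6, 50.3 and 52.7 CPM to 257, 237 and 249.6 CPM in WT and from 60.4, 88.3 and 72.6 CPM to 113, 119 and 114 CPM in co. In both genes every co library with UV-B was above every co library without it and below every WT library with UV-B.

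The smallest responses in co were those of Cre03.g174400, at 4.7% of L in WT, and Cre06.g258600, at 4.8%. Cre06.g258600 stood at 6.04, 2.28 and 4.03 CPM without and 77, 38.4 and 22 CPM with UV-B in WT. In co its values were 7.56, 9.01 and 12.2 CPM without and 21.3, 5.78 and 5.23 CPM with UV-B. Here library 1 alone was higher with UV-B in co, and libraries 2 and 3 were lower. Cre10.g460350, named after its values were seen, had the next smallest share of the genes that responded in hy5, at 7.93%. It held 6.34, 4.77 and 4.86 CPM without and 27.2, 20.4 and 30.3 CPM with UV-B in WT, and 7.74, 5.67 and 6.11 CPM without and 8.09, 6.67 and 7.44 CPM with it in co. Its co groups overlapped, whereas the WT groups stood far apart.

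**Figure D2:**
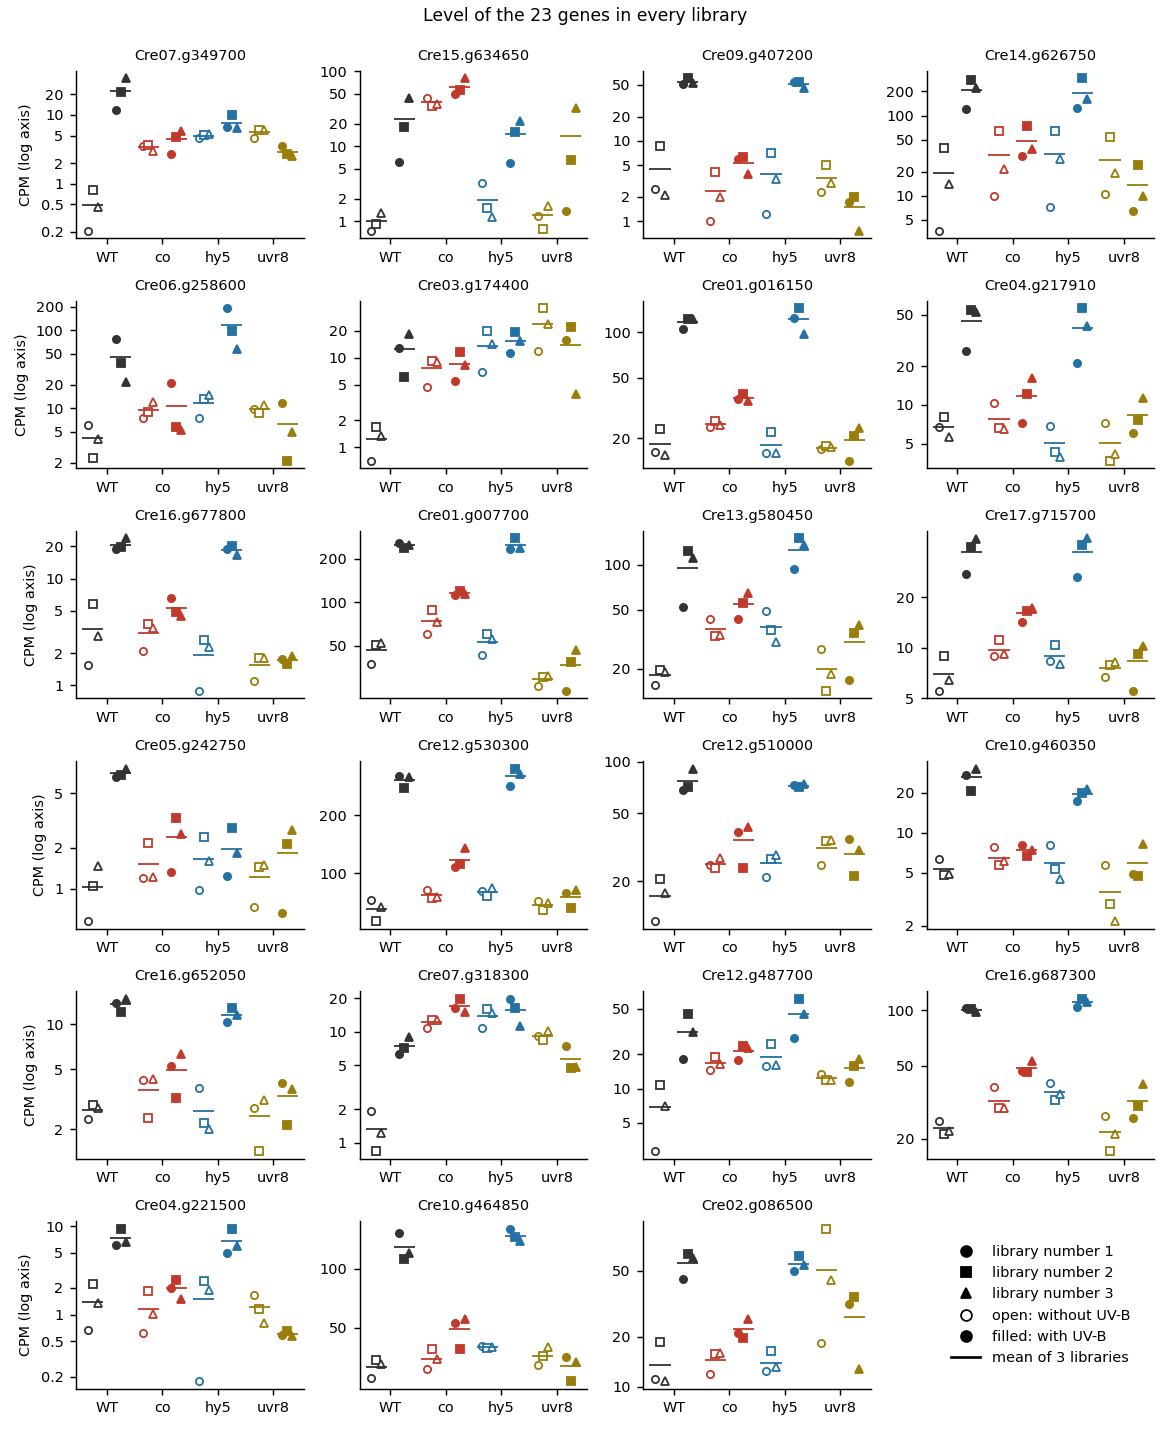
Level of each of the 23 genes in CPM (log axis, own range in each panel) in every library of WT, co, hy5 and uvr8. Open symbols are without UV-B and filled symbols with it, the shape gives the library number, and bars are means of 3 libraries. In most panels the filled symbols of WT and hy5 stand high, while those of co and uvr8 stay near the open ones.

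The hy5 libraries, which the rule did not use, gave a further measure of the UV-B response. Whether they vary independently of the same-numbered WT and co libraries was not tested. With edgeR's quasi-likelihood test and Benjamini-Hochberg adjustment over all 13613 genes tested, 19 of the 23 genes were higher with UV-B in hy5, against 7.04% of all tested genes. None was lower, against 2.54% of all tested genes. The log2 fold changes of the 19 ran from 1.33 to 3.82 with a median of 2.17, and their adjusted p-values from 1.43e-09 to 0.0496. Over all 23 genes the median log2 fold change was 2.07, beside 0.00 in size over all genes tested. In 20 of 23 genes the hy5 libraries with UV-B lay wholly above those without (11.2% of tested genes). Of the 19 calls, 10 held in each of 14 alternative fits. Without the libraries numbered 3 in every group, 10 of the 23 genes were called, and without those numbered 2, 15. Over all tested genes, 350 and 532 were called higher with UV-B in these fits, against 959 in the full fit.

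Cre01.g016150 rose in hy5 from 16, 22.1 and 16 CPM to 124, 144 and 96.9 CPM (edgeR log2 fold change 2.84, SE 0.18, adjusted p = 1.43e-09). These levels overlap those of WT in both conditions. Cre01.g007700 rose from 42.9, 60.8 and 55.5 CPM to 234, 277 and 238 CPM (edgeR log2 fold change 2.32, SE 0.18, adjusted p = 1.25e-08). Cre12.g530300 rose from 80.5, 76.4 and 83.9 CPM to 282, 349 and 326 CPM (edgeR log2 fold change 2.07, SE 0.18, adjusted p = 7.47e-08). The libraries of the 3 genes were close within each group, and these were among the 10 calls that held throughout. Cre10.g464850, with L in WT near the limit, rose from 40.2, 39.1 and 40.0 CPM to 159.9, 145 and 138 CPM (edgeR log2 fold change 1.98, SE 0.20, adjusted p = 5.2e-07). In WT it held 27.6, 34.1 and 32.8 CPM without and 152, 113 and 121 CPM with UV-B, and in co 30.8, 38.9 and 34.4 CPM without and 52.6, 39.1 and 55.1 CPM with it. The WT and hy5 libraries with UV-B overlapped, and those of co lay below both.

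The largest change in hy5 was that of Cre09.g407200, from 1.24, 7.15 and 3.32 CPM to 54, 53.6 and 46 CPM (edgeR log2 fold change 3.82, SE 0.57, adjusted p = 8.32e-05). Its WT libraries held 2.54, 8.7 and 2.14 CPM without and 50.9, 60.3 and 52.9 CPM with UV-B, and the co libraries 1.02, 4.12 and 2.0 CPM without and 5.92, 6.29 and 3.82 CPM with it. With UV-B the co level was thus far below that of both other strains, although 2 of the 3 co libraries stood higher than any co library without UV-B. Cre06.g258600 rose in hy5 from 7.46, 13.2 and 14.6 CPM to 191, 99.2 and 57.9 CPM (edgeR log2 fold change 3.41, SE 0.70, adjusted p = 0.00238). Library 1 was the highest with UV-B in WT, co, hy5 and uvr8 alike. Cre16.g677800 rose from 0.888, 2.65 and 2.28 CPM to 18.8, 20.0 and 16.5 CPM in hy5 (edgeR log2 fold change 3.35, SE 0.38, adjusted p = 1.98e-06), and its L in hy5 was 121% of that in WT, the highest share of the set. Cre04.g217910 rose from 6.84, 4.33 and 3.94 CPM to 21.1, 56.2 and 41.1 CPM (edgeR log2 fold change 3.03, SE 0.40, adjusted p = 1.79e-05). Its groups did not overlap in hy5, and its L there was 108% of that in WT.

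Other genes of high level rose in hy5 as well. Cre16.g687300 rose from 40.5, 32.5 and 35 CPM to 104, 116 and 111 CPM (edgeR log2 fold change 1.70, SE 0.21, adjusted p = 5.88e-06). Cre13.g580450 rose from 48.6, 36.5 and 30.1 CPM to 93.4, 151 and 135 CPM (edgeR log2 fold change 1.79, SE 0.31, adjusted p = 0.00037). By library totals, the hy5 level without UV-B was in both genes already above every WT library without UV-B, and L in hy5 was 75.7% and 71.9% of that in WT. Cre12.g510000 rose from 21.1, 26.8 and 28.6 CPM to 72.7, 70.6 and 73.7 CPM (edgeR log2 fold change 1.59, SE 0.24, adjusted p = 8.14e-05). Cre02.g086500 rose from 12.4, 16.3 and 13.2 CPM to 49.7, 61.5 and 54 CPM (edgeR log2 fold change 2.06, SE 0.40, adjusted p = 0.00128). Cre17.g715700 rose from 8.3, 10.4 and 8.04 CPM to 26.4, 41 and 44.7 CPM (edgeR log2 fold change 2.15, SE 0.20, adjusted p = 1.87e-07). No group overlap was seen in these 5 genes. Cre16.g652050 (named after its values were seen) and Cre10.g460350 rose by log2 fold changes of 2.17 and 1.78 in edgeR's test (SE 0.36 and 0.33, adjusted p = 0.00029 and 0.00104). Over the 23 genes, L in hy5 was at least 90% of that in WT in 9 and at least 50% in 19. These shares use library totals, by which the median L over all tested genes was -0.22 in WT and -0.08 in hy5. This scaling lowers L more in WT than in hy5, and the shares were not computed under TMM.

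Some calls in hy5 rested on few libraries or on the choice of fit. Cre14.g626750 went from 7.33, 64 and 28.9 CPM to 123, 292 and 161 CPM (edgeR log2 fold change 2.63, SE 0.83, adjusted p = 0.0496). Library 2 was the highest in all 8 groups for this gene, from 24.3 CPM in uvr8 with UV-B to 292 CPM in hy5 with UV-B. Its hy5 call was lost on leaving out any hy5 library with UV-B (adjusted p = 0.0576, 0.161 and 0.0768 for libraries 1, 2 and 3) or library 1 or 3 without UV-B (0.132 and 0.184). With no hy5 library left out, it was also lost in edgeR with DESeq2 size factors (adjusted p = 0.0554) and with the hy5 libraries alone (adjusted p = 0.0767). The call held in 6 of 14 alternative fits. The log2 ratio of UV-B to no UV-B within each library number was above 0 in hy5 for all 3 numbers. In this gene the hy5 libraries ranked alike in both conditions, with library 2 highest and library 1 lowest. Over all tested genes, same-numbered hy5 libraries did not all move together between conditions, so these ratios are given as a description. Cre12.g487700 went from 15.7, 24.5 and 16.1 CPM to 27.6, 61.2 and 44.6 CPM (edgeR log2 fold change 1.33, SE 0.32, adjusted p = 0.00878). This call was lost without hy5 UV-B library 2 (adjusted p = 0.0695) or hy5 library 3 without UV-B (adjusted p = 0.0574). Leaving out number 2 or 3 in every group lost it too (edgeR adjusted p = 0.0533 and 0.406). Cre04.g221500, a gene of low level, went from 0.178, 2.43 and 1.92 CPM to 4.92, 9.32 and 5.92 CPM (edgeR log2 fold change 2.26, SE 0.53, adjusted p = 0.00789). It was lost in a fit of the hy5 libraries alone (adjusted p = 0.115), and library 1 without UV-B rests on 4 counts. Leaving out number 2 or 3 in every group lost it as well (edgeR adjusted p = 0.0839 and 0.205). Without number 3, Cre06.g258600, Cre13.g580450, Cre10.g460350, Cre16.g652050 and Cre02.g086500 were also lost (edgeR adjusted p = 0.0557, 0.103, 0.107, 0.0946 and 0.0659). Cre10.g460350 was lost without number 2 too (edgeR adjusted p = 0.0505).

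**Figure D3:**
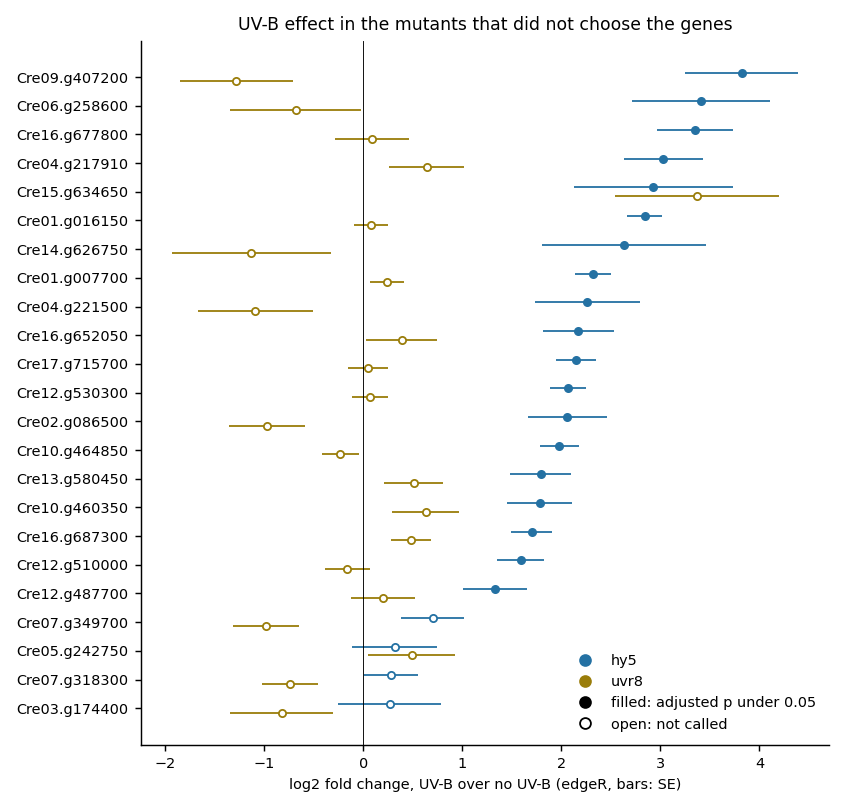
edgeR log2 fold change with UV-B (horizontal, bars are SE) of each of the 23 genes in hy5 (blue) and uvr8 (ochre), ordered by the value in hy5, with filled symbols for an adjusted p under 0.05. The 19 filled hy5 values run from 1.33 to 3.82, and no uvr8 value is filled.

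The 4 genes not called in hy5 were Cre07.g349700 (edgeR log2 fold change 0.70, SE 0.32, adjusted p = 0.212), Cre05.g242750 (edgeR log2 fold change 0.32, SE 0.43, adjusted p = 0.771), Cre07.g318300 (edgeR log2 fold change 0.28, SE 0.27, adjusted p = 0.657) and Cre03.g174400 (edgeR log2 fold change 0.27, SE 0.52, adjusted p = 0.858). For these the small response was seen in every mutant, with L in hy5 at 5.82% to 12.7% of that in WT. In 3 of them, all but Cre05.g242750, every WT library without UV-B was below all 9 mutant libraries without UV-B. The same was true of 3 genes that were called in hy5, named further on.

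Cre07.g349700, which had the highest L of the set in WT, held 0.208, 0.803 and 0.461 CPM without and 11.8, 21.6 and 34.2 CPM with UV-B there. Without UV-B it held 3.54, 3.65 and 3.01 CPM in co, 4.57, 5.16 and 5.24 CPM in hy5 and 4.57, 5.99 and 6.14 CPM in uvr8. With UV-B it held 2.67, 4.76 and 5.91 CPM in co, 6.72, 9.95 and 6.38 CPM in hy5 and 3.5, 2.73 and 2.55 CPM in uvr8. The mutants thus stood above WT without UV-B and below it with UV-B. Cre07.g318300 held 1.92, 0.845 and 1.22 CPM without and 6.36, 7.16 and 8.89 CPM with UV-B in WT. In co it held 10.7, 12.8 and 12.8 CPM without and 16.5, 19.6 and 15 CPM with it, and in hy5 10.9, 16.2 and 14.8 CPM without and 19.9, 16.4 and 11.2 CPM with it. In co and hy5 even the libraries without UV-B lay above every WT library with UV-B, so the rule found this gene through its level without UV-B and not through a low level with it.

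Cre03.g174400 held 0.709, 1.69 and 1.34 CPM without and 12.8, 6.17 and 18.6 CPM with UV-B in WT. Without UV-B it held 4.69, 9.28 and 9.0 CPM in co, 6.93, 19.7 and 14.2 CPM in hy5 and 12, 35.6 and 24 CPM in uvr8. With UV-B the respective values were 5.56, 11.5 and 8.32 CPM, 11.4, 19.4 and 15.4 CPM and 16, 21.8 and 3.96 CPM. With UV-B the libraries of the 4 strains overlapped. Cre05.g242750 was different, since its levels without UV-B overlapped between strains. It held 0.584, 1.06 and 1.47 CPM without and 6.55, 6.73 and 7.54 CPM with UV-B in WT, and 0.977, 2.38 and 1.61 CPM without and 1.25, 2.79 and 1.82 CPM with it in hy5. In co it held 1.19, 2.17 and 1.21 CPM without and 1.34, 3.31 and 2.52 CPM with it. With UV-B, all WT libraries were above all mutant libraries.

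Over the whole set, the mean without UV-B was above that of WT in 20 of 23 genes in co, in 18 in hy5 and in 14 in uvr8. With TMM scaling these counts were 16, 14 and 14, so part of them depends on the scaling. Without UV-B the TMM factors were 0.848 to 0.997 in WT, 1.06 to 1.20 in co and 1.03 to 1.12 in hy5. The share over all tested genes was not computed for these counts, so they are not read as particular to the set. By library totals, the WT libraries without UV-B lay wholly below those of co in 13 of 23 genes, against 25.2% of all tested genes. With TMM 8 genes did so, but no share over all tested genes was computed under TMM. By library totals, the WT libraries lay wholly below all 9 mutant libraries in 6 genes, against 5.5% of tested genes. These were Cre03.g174400, Cre06.g258600, Cre07.g318300, Cre07.g349700, Cre12.g487700 and Cre12.g510000, and all but the last did so under TMM as well. L in WT and L in co enter the rule with the level without UV-B as denominator. A low level there in WT or a raised one in co therefore favours membership. Every comparison of a mutant with WT without UV-B uses that WT level, so these counts are descriptions.

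**Figure D4:**
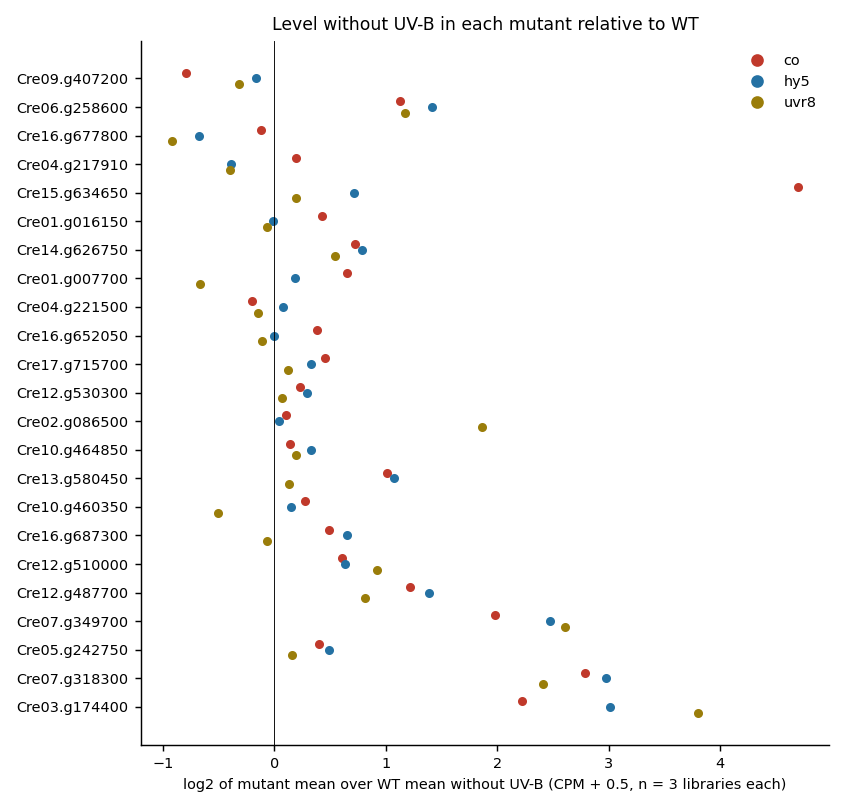
Log2 of the mutant mean over the WT mean without UV-B (horizontal, on CPM + 0.5, n = 3 libraries each) for co, hy5 and uvr8 in each of the 23 genes, ordered by the UV-B effect in hy5. Cre03.g174400, Cre07.g318300 and Cre07.g349700 lie at 1.98 or more in all 3 mutants, Cre15.g634650 lies at 4.70 in co alone, and all other values are at 1.86 or below.

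Cre15.g634650 went against the description of the set as genes low in co. It held 0.75, 0.93 and 1.3 CPM without and 6.17, 17.9 and 44.4 CPM with UV-B in WT. In co it held 44.5, 34.3 and 36.2 CPM without and 49.7, 56.2 and 80.4 CPM with UV-B. The co libraries were thus high in both conditions, and those with UV-B lay above every WT library. It shared with Cre07.g318300 a UV-B mean in co at or above that in WT, seen in these 2 of the 23 genes. In hy5 it went from 3.2, 1.5 and 1.14 CPM to 5.91, 15.3 and 21.8 CPM (edgeR log2 fold change 2.93, SE 0.80, adjusted p = 0.0217). In uvr8 it went from 1.18, 0.799 and 1.62 CPM to 1.37, 6.53 and 32.6 CPM (edgeR log2 fold change 3.37, SE 0.83, adjusted p = 0.396). With UV-B library 1 was the lowest and library 3 the highest in all 4 strains. The hy5 call was lost without hy5 UV-B library 2 or 3 (adjusted p = 0.0514 and 0.0902) or without hy5 library 2 or 3 of the groups without UV-B (adjusted p = 0.101 and 0.119). In uvr8 it was called by DESeq2 (adjusted p = 0.0104) and by edgeR without uvr8 UV-B library 1 (adjusted p = 0.0306).

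In uvr8, the strain mutated in the photoreceptor gene, 0 of the 23 genes were called by edgeR, and 0.0% of all tested genes were called in either direction. At an unadjusted p under 0.05 there were 1209 genes, 6 of them in the set, and DESeq2 called 14 genes, of which Cre15.g634650 was in the set. The log2 fold changes of the 23 genes ran from -1.28 to 3.37 with a median of 0.07, 13 above and 10 below 0, beside a median of 0.01 over all genes tested. No gene of the set had its uvr8 UV-B libraries wholly above those without UV-B (8.87% of tested genes). Of the set, 4 had them wholly below (3.2% of tested genes), namely Cre04.g221500, Cre07.g318300, Cre07.g349700 and Cre09.g407200. Cre09.g407200 held 2.33, 5.07 and 2.99 CPM without and 1.71, 1.99 and 0.761 CPM with UV-B in uvr8 (edgeR log2 fold change -1.28, SE 0.57, adjusted p = 0.548). Cre01.g016150 held 16.9, 17.6 and 17.5 CPM and 14.2, 20.7 and 23.3 CPM (edgeR log2 fold change 0.08, SE 0.17, adjusted p = 0.892), and its groups overlapped.

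The count in uvr8 depended on the libraries numbered 1. In an analysis chosen after the data were seen that left these out of every group, edgeR called 9 of the 23 genes, among 1581 of all genes. Cre16.g687300, Cre13.g580450, Cre04.g217910, Cre10.g460350 and Cre15.g634650 were then higher with UV-B in uvr8, by 0.77, 1.09, 1.19, 1.25 and 3.93 on the log2 scale. Cre02.g086500, Cre06.g258600, Cre07.g349700 and Cre07.g318300 were lower, by -1.58, -1.56, -1.29 and -1.05. In 4 of the 5 higher genes, all but Cre15.g634650, uvr8 library 1 was lower with UV-B than without it, as in Cre13.g580450 with 26.9, 14.1 and 18.5 CPM without and 16.8, 34.8 and 39.3 CPM with UV-B. A p above the threshold in the full fit therefore does not show that the set was unresponsive in uvr8.

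The difference between the effects was then tested itself. The UV-B effect was larger in hy5 than in uvr8 in 14 of the 23 genes by edgeR's test (3.89% of all tested genes), and smaller in none (0.331% of tested genes). The differences over the 23 ran from -0.45 to 5.10 on the log2 scale, with a median of 2.00, beside -0.02 over all genes tested. The difference was largest in Cre09.g407200 (edgeR log2 difference 5.10, SE 0.80, adjusted p = 0.000269) and Cre06.g258600 (edgeR log2 difference 4.09, SE 0.95, adjusted p = 0.0125). It was most precise in Cre01.g016150 (edgeR log2 difference 2.76, SE 0.24, adjusted p = 2.91e-07), Cre01.g007700 (edgeR log2 difference 2.09, SE 0.25, adjusted p = 9.97e-06) and Cre12.g530300 (edgeR log2 difference 2.00, SE 0.25, adjusted p = 1.98e-05). Cre07.g349700 was called here (edgeR log2 difference 1.68, SE 0.46, adjusted p = 0.0404) although neither of its effects was called alone, and the call was lost in 9 of the 12 fits that left out 1 hy5 or uvr8 library. Of the 9 genes not called, Cre14.g626750 had a difference of 3.77 and Cre16.g652050 of 1.79 with adjusted p of 0.0747 and 0.0512 in edgeR's test. DESeq2 called both, and so did edgeR with the library number as a block (adjusted p = 2.69e-05 and 0.00384). Same-numbered hy5 and uvr8 libraries moved together with and without UV-B, and the block gave 16 calls in the set and 1033 in all genes, against 574 without it. Without the libraries numbered 3 the count fell to 5 of 23, and without those numbered 2 to 9. Over all tested genes, the effect was called larger in hy5 in 157 and 261 genes in these fits, against 529 in the full fit. With UV-B, the hy5 libraries lay wholly above the uvr8 libraries in 20 of the 23 genes (14.6% of tested genes), the exceptions being Cre03.g174400, Cre05.g242750 and Cre15.g634650.

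Without UV-B the 2 mutants outside the rule differed in few of the 23 genes. Cre01.g007700 was higher in hy5 than in uvr8, at 53.1 ± 9.18 against 29.4 ± 2.53 CPM (edgeR log2 difference 0.70, SE 0.17, adjusted p = 0.0301), which made 1 of 23 beside 0.97% of tested genes. Cre02.g086500 was lower in hy5, at 14 ± 2.06 against 50.5 ± 35.9 CPM (edgeR log2 difference -1.98, SE 0.40, adjusted p = 0.00876), which made 1 of 23 beside 2.39% of tested genes. The uvr8 libraries of Cre02.g086500 held 18.4, 89.3 and 43.8 CPM, so that library 2 stood far above the others, and without it the log2 difference was -1.31 and the call was lost (adjusted p = 0.0853). The call was also lost without hy5 library 3 (-1.94, adjusted p = 0.0559) and in a fit of the mutants alone (-1.96, adjusted p = 0.0807), at nearly the same difference. The call of Cre01.g007700 was lost without library 2 or 3 of hy5 or any library of uvr8 (adjusted p = 0.0703 to 0.131). Same-numbered libraries moved together in this comparison. With the library number as a block 3 genes of the set were called, the 2 genes named here among them, and the calls over all genes went from 458 to 1403.

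Beside the other 148 genes with a strong response in WT, the set had a lower share of called genes in hy5. There 144 of the 148 (97.3%) were higher with UV-B in hy5, against 19 of the 23 (82.6%). The effect in hy5 exceeded that in uvr8 in 127 of the 148 (85.8%), against 14 of the 23 (60.9%). By library totals, L in hy5 had a median of 101% of that in WT in the 148 genes and of 85.9% in the 23. These differences were not tested, since WT values chose both sets. Among the 23 genes 19 lay at 57.7% to 121%, and the 4 genes not called in hy5 lay at 5.82% to 12.7%. The 148 ran from 1.28% to 127%, and their lowest share was that of HY5 itself, the gene mutated in hy5.

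**Figure D5:**
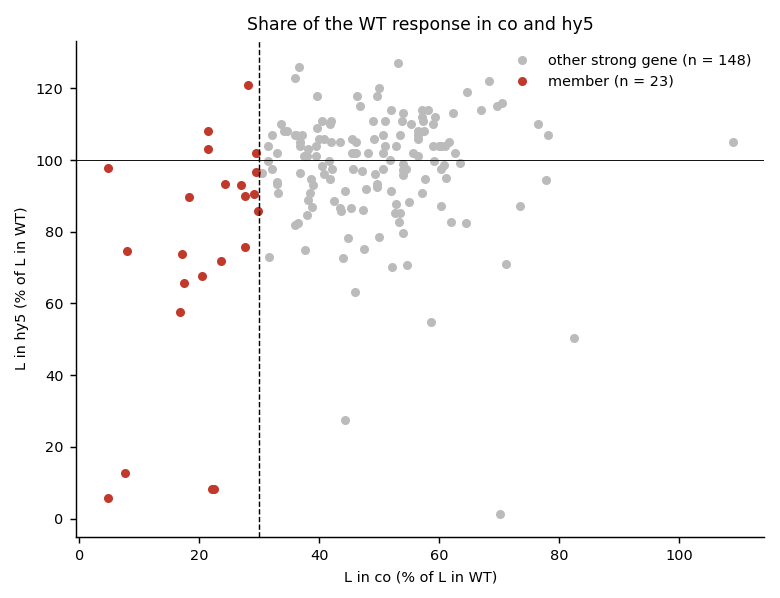
L in hy5 as a percentage of L in WT (vertical) against L in co as a percentage of L in WT (horizontal) for the 23 genes (red) and the other 148 strong genes (grey), with the rule's limit at 30% dashed. Of the red points, 19 lie between 57.7% and 121% in hy5 and 4 lie between 5.82% and 12.7%.

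The genes of the pathway were read beside the set from hand-written lists. Of 27 listed genes measured, 19 met the WT thresholds and 4 met the whole rule, and these 4 are the ones set aside. PSBS1 and PSBS2 encode PSBS proteins, known in plants for their part in qE, a fast release of excess light energy as heat. Their L in co was 8.28% and 24.4% of that in WT. ELI2 and ELI4, genes of early light-inducible proteins of the thylakoid, were at 6.57% and 9.17%. In co, PSBS1 went from 0.257 CPM without UV-B to 0.680 CPM with it, and PSBS2 from 0.165 to 1.97 CPM. ELI2 went from 0.0521 to 0.277 CPM there, and ELI4 from 0.0389 to 0.404 CPM. These 4 means without UV-B lay under the 0.5 CPM added for L, so the shares depend on that addition. Responses in hy5 were far larger in these 4 genes than in the 23, with edgeR log2 fold changes of 8.57 for PSBS1 and 9.02 for ELI4.

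Among 5 listed genes of UV-B signalling, 3 were strong in WT and none met the rule. COP1, SPA1 and HY5 had an L in co of 63.5%, 51.0% and 70.2% of that in WT. LHL4, an LHC-like protein named in the series title, stood at 57.2%, ELI1 at 48.9% and LHCSR1, a protein of qE in algae, at 109%. The level of LHCSR1 with UV-B was nevertheless far lower in co (49.4 ± 6.79 CPM) than in WT (1356 ± 144 CPM). Its means before UV-B were 1.45 ± 1.21 CPM in co and 67.9 ± 85.4 CPM in WT, the latter with a wide spread. LHCSR3A and LHCSR3B, close copies whose reads may be split, had small shares as well (8.76% and 5.89%) but an L in WT of 1.32 and 1.36, under the limit. In hy5, edgeR called 11 of the 14 measured genes of the signalling, qE and LHC-like lists higher with UV-B (7.04% of all tested genes). In uvr8 it called none of the 14, as it called none of all tested genes.

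The 23 loci were spread over the genome. All 23 were found in the RefSeq gene table of assembly v5.5, on 15 of 17 chromosomes, with at most 3 on any of them. No pair of the set were next neighbours. Of the genes next to a member, 37 were tested, 0 were strong in WT, and 3 (8.11%) were higher with UV-B in hy5, close to the 7.04% of all tested genes. The 3 are named here after their values were seen. Cre04.g221550, beside Cre04.g221500, had an L in WT of 1.77 and an edgeR log2 fold change in hy5 of 2.11 (adjusted p = 2.12e-05). Cre13.g580500 and Cre16.g652100 changed in hy5 by 0.52 and 0.72 (edgeR adjusted p = 0.00123 and 0.00913), less than their neighbours in the set. The strand setting of the counting is not given in the sources used here, so reads of overlapping neighbours cannot be told apart.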

How the data were processed

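RNA was measured in 24 libraries of 4 strains with and without UV-B, grouped by their titles. The table that the authors deposited holds raw counts of reads by gene, not normalized, with identifiers of annotation version 6.1. The tools named, per the submitters' processing notes, are STAR 2.7.10b, bcl2fastq 2.20.0, edgeR 3.42.4 and HTSeq 0.11.3, without their roles. How strand and multiply matching reads were handled is not given in the sources used here. Per the labels' protocols the kit was a stranded mRNA kit.

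From these counts, L was computed on CPM by library totals. For tests, 126 genes at 0 everywhere and genes that failed filterByExpr (count minimum 10, total minimum 15) were left out, and 13613 remained, all 23 genes of the set among them. TMM factors were 0.670 to 1.20. In R 4.3.3, edgeR 4.0.16 (limma 3.58.1) fitted 1 mean per group over all 24 libraries, and quasi-likelihood F tests were two-sided, with Benjamini-Hochberg adjustment over all genes and a threshold of 0.05. Each SE was taken as the absolute log2 fold change over the root of F. DESeq2 1.42.0 was an alternative, beside other scaling, no filter, fewer libraries and a replicate block. Only the main edgeR fit, for the UV-B effect in hy5, was tried on simulated data, in which library numbers had no shared effect. The other comparisons and fits were not simulated. All 24 pairs of libraries within a group differed beyond counting noise (chi-square per degree of freedom 21.7 to 135), and none was merged.

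The members, gene lists and tests were chosen with earlier results of these data known. Genes named are the 10 of highest level in WT with UV-B, the 5 largest and 5 smallest effects in hy5, those at the rule's limits, calls in uvr8 where 10 or fewer, and the listed genes of UV-B signalling, qE and LHC-like proteins; exceptions are stated. ELI3 was not analysed here, nor were promoter motifs. Deviations from group means of same-numbered libraries correlated over 0.1 for all numbers between hy5 and uvr8 without UV-B (0.633, 0.648 and 0.267) and with UV-B (0.676, 0.569 and 0.486), so those count as paired by the data, not by the labels. Between UV-B and no UV-B within a strain this did not hold (hy5 0.0629, 0.655 and -0.34; uvr8 0.0942, 0.662 and -0.164).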

Additional observations from a re-analysis of the deposited data

Results flagged for a closer look

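In 14 of the 23 genes the UV-B effect differed between hy5 and uvr8 by edgeR's test of the difference itself. On the log2 scale, hy5 minus uvr8, the difference was 1.68 for Cre07.g349700, 5.10 for Cre09.g407200, 4.09 for Cre06.g258600, 2.76 for Cre01.g016150, 2.39 for Cre04.g217910, 3.26 for Cre16.g677800, 2.09 for Cre01.g007700. It was 2.10 for Cre17.g715700, 2.00 for Cre12.g530300, 1.75 for Cre12.g510000, 1.22 for Cre16.g687300, 3.35 for Cre04.g221500, 2.21 for Cre10.g464850 and 3.03 for Cre02.g086500. The effect was the higher one in hy5 in all 14, and 5 of the 14 calls (Cre01.g016150, Cre01.g007700, Cre17.g715700, Cre12.g530300 and Cre10.g464850) held in each of 20 alternative fits.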

How the results depend on the processing

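The rule gave 23 genes, and 42 with TMM scaling (all 23 among them). A limit of 0.2 on the share in co gave 8 genes, and a limit of 0.4 gave 60. With 1 CPM added in place of 0.5 the rule gave 19 genes, 17 of them among the 23. With 0.1 CPM added it gave 24, 21 of them among the 23. Leaving out 1 WT or co library gave 15 to 38 genes, with 35 without WT UV-B library 1. Of the libraries without UV-B, leaving out WT library 2 gave 38 genes and leaving out co library 2 gave 15. The 19 genes higher in hy5 were 18 or 19 with other scaling, DESeq2, no filter or the block, 17 with the hy5 libraries alone, and 10 to 19 on leaving out libraries. Over all genes the 1305 calls in hy5 became 849 with the hy5 libraries alone and 366 to 2625 on leaving out libraries. In uvr8, DESeq2 called 1 gene of the set and 14 in all, and leaving out libraries gave 0 to 9 of the set and 0 to 1581 in all. For the difference between hy5 and uvr8, 5 to 16 genes of the set and 157 to 836 of all genes (574 in the full fit) were called on leaving out libraries. Without UV-B, the 2 calls of the set between hy5 and uvr8 became 0 in a fit of the mutants alone and 0 to 3 on leaving out libraries. Over all genes, those 458 became 850 with DESeq2, 138 with the mutants alone and 13 to 706 on leaving out libraries. A replicate block, with pairing found between the mutants in both conditions but not between conditions within a mutant, gave 2617 calls in hy5, 1033 for the difference and 1403 between the mutants over all genes, and 19, 16 and 3 in the set; in uvr8 it called 0 of the set. Effects in hy5 changed sign on leaving out libraries in Cre03.g174400 (-0.03 to 0.60), Cre05.g242750 (-0.01 to 0.65), Cre07.g318300 (-0.07 to 0.52) and HY5 (-0.07 to 0.45), none of them called. The difference did so in Cre15.g634650 (-0.97 to 1.31) and Cre05.g242750 (-0.54 to 0.21), neither called. The causes were not tested. Genes of a few CPM rest on as few as 4 counts in a library, and intervals of their levels are wide.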
